A study of Mus musculus with 4 samples.

Results

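Class I antigen processing and the immunoproteasome were examined through 10 genes taken from the count table by their symbols, namely B2m, Tap1, Tap2, Tapbp, Erap1, Psmb8, Psmb9, Psmb10, Psme1 and Psme2. The table listed 35798 genes, and all 10 were among the 13822 that could be tested. Ly49H+ NK cells of the 2 genotypes, wild-type carrying CD45.1 and TNFR2 KO carrying CD45.2, had been placed together in NSG hosts that were infected with MCMV one day later, and were sorted from the spleen on D3.5 for RNA-seq. Each genotype had 2 libraries, each made from the pooled spleens of 3 hosts, and equal replicate numbers mark the same pool of spleens. The comparison asked how the absence of TNFR2, a receptor for TNFα encoded by Tnfrsf1b, changed gene expression in NK cells during infection. Both groups thus shared the transfer, the immunodeficient host and the infection, while the genotype could not be separated from the CD45 allele and its gate. The KO mice lacked the gene in the whole animal, and the study's methods describe mice of young adult age. NSG hosts lack T, B and NK cells of their own but keep myeloid cells. The study describes its RNA-seq as one experiment in duplicate. The p-values here come from a fit on genotype alone, with the spread between duplicate libraries estimated in part over all genes. They do not measure the spread between independent experiments.

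MHC class I molecules display peptides from the inside of a cell at its surface, where CD8 T cells and the inhibitory receptors of NK cells read them. Peptides are cut by the proteasome, whose constitutive catalytic subunits can be replaced by immunosubunits (Psmb8, Psmb9 and Psmb10) and whose opening is aided by the activator PA28 (Psme1 and Psme2). The transporter TAP (Tap1 and Tap2) carries them into the endoplasmic reticulum, where Erap1 trims them and tapasin (Tapbp) helps load them onto a heavy chain paired with β2-microglobulin (B2m). These genes are known targets of interferons, and lymphocytes express the immunosubunits even at rest.

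On GRCm38 (mm10), a cluster of 4 members lies in the MHC region of chromosome 17, with Psmb9 from 34181987 to 34187764 on the minus strand and Tap1 (34187553 to 34197225), Psmb8 (34197721 to 34201454) and Tap2 (34203527 to 34216321) on the plus strand. Tapbp lies on the same chromosome from 33915899 to 33929292. Psme1 (55578123 to 55581529) and Psme2 (55587441 to 55591113) are neighbours on chromosome 14, on the plus and the minus strand. B2m lies on chromosome 2 (122147686 to 122153083), Psmb10 on chromosome 8 (105935735 to 105938444) and Erap1 on chromosome 13 (74639568 to 74693201). The annotated ends of Psmb9 and Tap1 overlap on opposite strands.

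Sequence upstream of the start is shown for the member that rose with TMM scaling, B2m, for the member that fell most, Psme2, and for the class I heavy chain H2-K1, whose transcript also rose. The stretches are RefSeq sequence of GRCm38.p6, with capitals marking matches to ISRE or κB motifs. They lie at chr2:122147537-122147685 (plus strand), chr14:55591114-55591251 (minus strand) and chr17:34000408-34000497 (minus strand).
B2m: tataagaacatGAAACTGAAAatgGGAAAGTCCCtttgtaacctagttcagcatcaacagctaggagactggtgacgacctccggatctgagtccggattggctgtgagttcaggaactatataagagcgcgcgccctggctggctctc
Psme2: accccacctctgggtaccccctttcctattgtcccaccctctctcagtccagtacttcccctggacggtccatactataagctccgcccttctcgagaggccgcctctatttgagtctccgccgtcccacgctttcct
H2-K1: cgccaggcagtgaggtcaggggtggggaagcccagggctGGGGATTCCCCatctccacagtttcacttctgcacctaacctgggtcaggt
The B2m stretch holds an ISRE match (GAAANNGAAA on either strand), followed by a κB match 3 bases further on. In H2-K1 the capitals cover overlapping κB matches, and the Psme2 stretch holds neither motif. RefSeq promoters were found for 9 of the 10 members. Over the 250 bases before each start, B2m was the only one of these 9 with an ISRE or a κB match, and Psmb8 the only one with a GAS match (TTCNNNGAA). Among 32851 promoters of the same length, 2.98% held the ISRE, 7.25% the κB motif and 7.02% the GAS motif. Such a match is a description of letters and not a binding site.

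The libraries held between 32713256 and 39543650 counts on named genes. Tnfrsf1b, the targeted gene, measured 264.7 and 268.6 CPM in wild-type and 55.1 and 58.6 CPM in TNFR2 KO, where CPM is the depth-scaled count (per-million, with TMM factors). NK cell markers were high in every library, and all 12 of the list were called higher in TNFR2 KO, with Gzma the most abundant and a summed level of 16150 to 16240 CPM in wild-type against 29460 to 29700 CPM in TNFR2 KO. Most lists of myeloid and erythroid markers moved the opposite way. Of 30 macrophage or monocyte markers 29 were called lower in TNFR2 KO (Ccr2, the most abundant of them, was higher), and their sum went from 4474 to 4537 CPM down to 1241 to 1260 CPM. The sums of the neutrophil (led by Mpo), basophil or mast cell (Prss34), erythroid (Hba-a1) and dendritic or class II lists (Cd74) were 9.98, 12.5, 4.59 and 11.5 times as high in wild-type. Of the markers tested in these lists, 16 of 16, 9 of 10, 10 of 10 and 7 of 11 were called lower. The remaining basophil or mast cell marker was called higher, and the remaining 4 dendritic or class II markers were not called. B cell markers (Cd22) summed to at most 25.6 CPM. T cell markers (Trbc2) summed to 1310 to 1315 CPM in wild-type and 1104 to 1124 CPM in TNFR2 KO. Stromal markers summed to 113 to 120 CPM in wild-type and 136 to 137 CPM in TNFR2 KO. Most of that sum was Pecam1, at 105.4 and 110.3 CPM in wild-type and 134.3 and 133.6 CPM in TNFR2 KO. Of the 7 stromal markers tested, 4 were called lower, each by more than 1 on the log2 scale, and 1, Pecam1, was called higher (median log2-fold change -1.16). Myeloid cells and NK cells both use class I processing genes, and the part of these markers in the results below was not tested. In bulk RNA, fewer cells of a type and less RNA per cell cannot be told apart.

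Class I processing genes were expressed at similar levels in both genotypes. In the fit over all genes (edgeR's quasi-likelihood test, Benjamini-Hochberg adjusted p under 0.05), 7 of the 10 members were lower in TNFR2 KO (Tap2, Tapbp, Erap1, Psmb8, Psmb9, Psmb10 and Psme2), B2m was higher, and Tap1 and Psme1 were not called. Over all tested genes, 26.2% were called lower and 24.2% higher by the same rule. The changes were small, from -0.32 for Psme2 to 0.13 for B2m on the log2 scale of TNFR2 KO over wild-type, with a median of -0.11 over the 10 members and -0.003 over all tested genes. All 10 estimates lay within an absolute log2-fold change of 1, the additional limit that 13.3% of all tested genes passed. An unadjusted p under 0.05 was found for 8 of the 10 in edgeR and in DESeq2. At the stricter adjusted p under 0.05, 6965 of the 13822 tested genes already passed in edgeR. So did 74.1% of the 990 genes at least as abundant as the lowest member. The CPM values of the duplicates did not overlap between genotypes for any of the 10, but the same held for 74.0% of all tested genes. Scaling the libraries on 39 NK lineage genes in place of TMM shifted the median of all genes to -0.53, and all 10 members, B2m and Psme1 included, were then lower, with a median of -0.64. This scaling uses the summed counts of those genes, so the most abundant weigh most. It takes their sum as equal between genotypes, which was not tested.

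**Figure D1:**
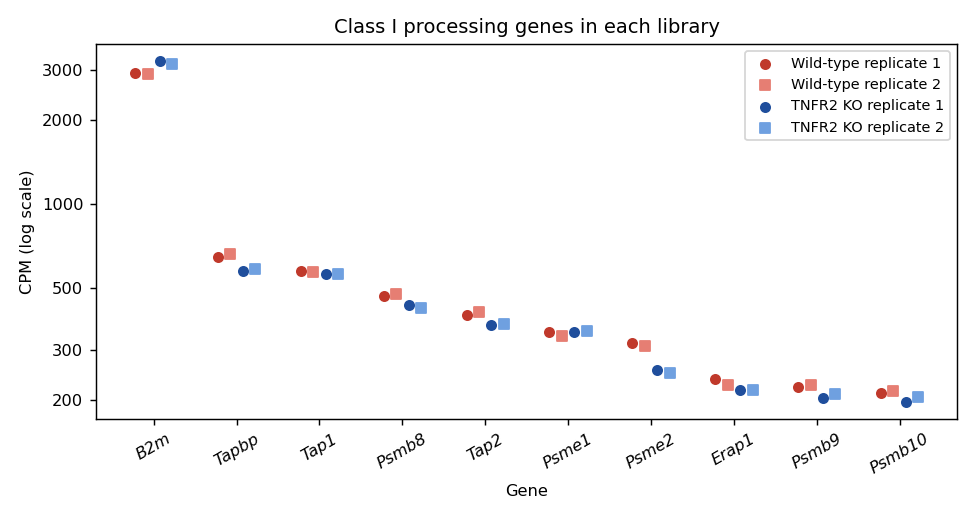
Expression of the 10 genes in each of the 4 libraries, as CPM on a log axis, with wild-type in red, TNFR2 KO in blue, circles for replicate 1 and squares for replicate 2. B2m lies at 2918 to 3239 CPM and the other genes between 197 and 664 CPM, with duplicates close together.

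**Figure D2:**
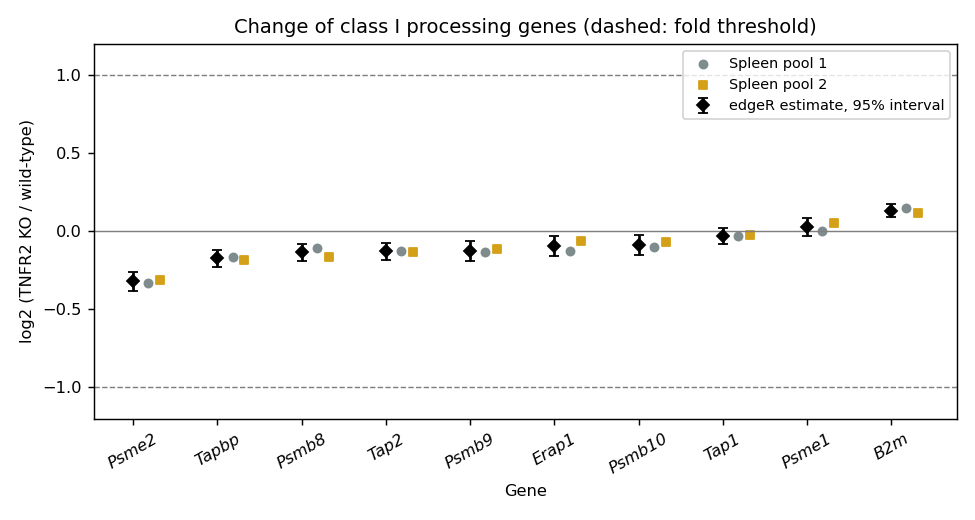
Log2 change of TNFR2 KO over wild-type for each gene, as the edgeR estimate with its 95% interval (black) and as the ratio within each spleen pool (grey circles and yellow squares). All estimates lie between -0.32 and 0.13, inside the dashed lines at 1 and -1.

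The immunosubunits were all slightly lower in the TNFR2 KO libraries. Psmb8 encodes the subunit that takes the place of Psmb5, and its level was 469.9 and 477.7 CPM in wild-type and 436.8 and 425.3 CPM in TNFR2 KO. Both TNFR2 KO libraries lay below both wild-type libraries, and the log2-fold change was -0.14 (SE 0.0253, adjusted p = 0.000732). For Psmb9, which replaces Psmb6, the values were 222.5 and 226.5 CPM in wild-type and 202.7 and 209.3 CPM in TNFR2 KO. This gave a log2-fold change of -0.12 (SE 0.0288, adjusted p = 0.00329). Psmb10, which replaces Psmb7, was measured at 211.9 and 215.2 CPM in wild-type and at 197.1 and 205.1 CPM in TNFR2 KO. The closest libraries of the genotypes differed by less than the TNFR2 KO duplicates of Psmb10 did, and its log2-fold change of -0.09 (SE 0.0296, adjusted p = 0.028) was called or not depending on the libraries and the tool. Without wild-type replicate 1, wild-type replicate 2 or TNFR2 KO replicate 1 the adjusted p of Psmb10 was 0.074, 0.183 and 0.303, and with DESeq2 it was 0.0757.

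The constitutive catalytic subunits did not move as a block. Psmb5 rose from 90.2 and 92.0 CPM to 98.5 and 98.6 CPM, a log2-fold change of 0.11 (SE 0.0345, adjusted p = 0.0162). This change turned to -0.42 with NK lineage scaling. It was not called with library size alone (0.05), with a filter at 10 CPM (0.08) or with DESeq2 (adjusted p = 0.0757). Of the sequence of Psmb5, 71.7% also occurs in other annotated genes, mostly in Gm3375, so reads can be split between them. Gm3375 measured 3.96 and 4.45 CPM in wild-type and 0.23 and 0.53 CPM in TNFR2 KO. With its reads added to Psmb5, the log2 difference in the Psmb8 to Psmb5 ratio was -0.19 in place of -0.25. The part of split reads in the Psmb5 change itself was not tested. Psmb7 fell by 0.11 on the log2 scale in edgeR (SE 0.0327, adjusted p = 0.0124) but was not called with DESeq2 (adjusted p = 0.0529). Psmb6 was at 120.7 and 123.6 CPM in wild-type and 119.7 and 112.0 CPM in TNFR2 KO and was not called (adjusted p = 0.122, 95% interval of the log2-fold change from -0.16 to 0.01), but was called lower with library size alone (-0.14) and with a filter at 10 CPM (-0.11).

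Dividing each immunosubunit by its constitutive counterpart within a library removes the scaling between libraries. Psmb8 counts were 5.21 and 5.19 times those of Psmb5 in the wild-type libraries and 4.43 and 4.31 times in the TNFR2 KO libraries, a log2 difference of -0.25. This shift exceeded the SD between duplicates (0.004 and 0.028 on the log2 scale). It was -0.19 when the reads of Gm3375, which holds 59.8% of the stretches of Psmb5, were added to Psmb5. The ratio of Psmb9 to Psmb6 was 1.84 and 1.83 in wild-type and 1.69 and 1.87 in TNFR2 KO. Here the groups overlapped, and the difference of -0.05 was smaller than the SD of 0.10 between TNFR2 KO duplicates. It turned to 0.02 without TNFR2 KO replicate 1. For Psmb10 and Psmb7 the ratio was 1.64 and 1.63 against 1.66 and 1.67, a log2 difference of 0.03 that was larger than the SD between duplicates but the smallest of the 3 in size. An exact two-sided permutation test on 2 against 2 libraries cannot give a p under 0.33. This p of 0.33 from the exact permutation test was reached for the ratios with Psmb8 and Psmb10, and the p was 1.0 for that with Psmb9. Per kilobase of transcript, where levels of different genes can be compared, Psmb8 was at 2.87 to 2.88 times Psmb5 in wild-type, Psmb9 at 1.08 to 1.09 times Psmb6 and Psmb10 at 1.45 times Psmb7.

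**Figure D3:**
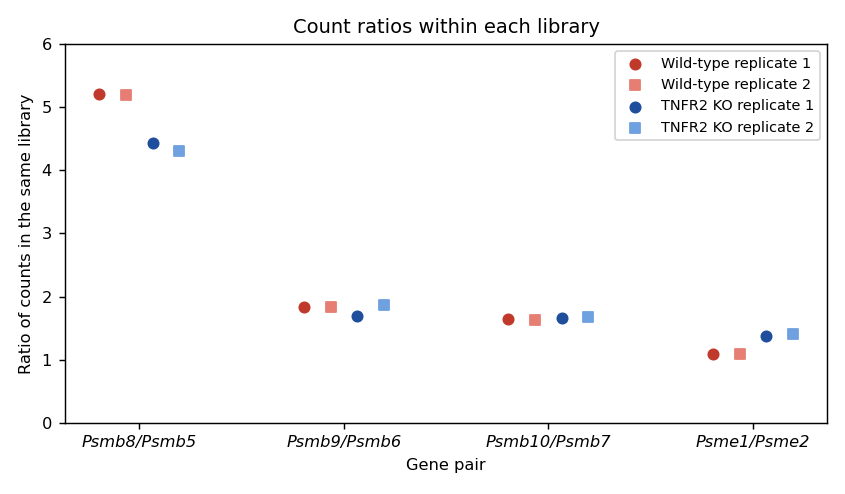
Ratio of counts for 4 gene pairs in each library, with wild-type in red and TNFR2 KO in blue (linear axis from 0). The Psmb8 to Psmb5 ratio sits at 5.19 to 5.21 in wild-type and 4.31 to 4.43 in TNFR2 KO, the Psme1 to Psme2 ratio at 1.09 in both wild-type libraries and 1.37 to 1.41 in TNFR2 KO, and the other pairs lie close together.

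The subunits of PA28, which assemble into a mixed ring, parted in these libraries. Psme2, encoding PA28β, measured 319.6 and 310.1 CPM in wild-type and 254.5 and 249.7 CPM in TNFR2 KO. It fell by 19.9%, the largest change among the 10 members, with a log2-fold change of -0.32 (SE 0.0275, adjusted p = 9.85e-07). Psme1, encoding PA28α, was at 347.8 and 338.9 CPM in wild-type and 348.4 and 351.9 CPM in TNFR2 KO. The lowest TNFR2 KO library exceeded the highest wild-type library by less than the difference between wild-type duplicates, and Psme1 was not called (log2-fold change 0.03, 95% interval -0.03 to 0.08, adjusted p = 0.399). Within libraries the ratio of Psme1 to Psme2 was 1.09 in both wild-type libraries and 1.37 and 1.41 in the TNFR2 KO libraries, a log2 difference of 0.35 against an SD between duplicates of at most 0.03 (exact permutation p = 0.33, the smallest possible). Of the sequence of Psme2, cut into stretches of 31 bases, 33.5% also occurs in the retrogene Psme2b, so reads can be split between them. Psme2b measured 16.1 and 16.7 CPM in wild-type and 16.7 and 15.3 CPM in TNFR2 KO, and adding its counts to those of Psme2 left a log2-fold change of -0.31. Psme3, which encodes the nuclear activator PA28γ, fell by 0.12 on the log2 scale (adjusted p = 0.00421).

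Of the subunits of the TAP transporter, one was called and the other was not. Tap2 was at 402.5 and 410.1 CPM in wild-type and 369.4 and 373.6 CPM in TNFR2 KO, and both TNFR2 KO libraries lay below both wild-type libraries. Its log2-fold change was -0.13 (SE 0.0249, adjusted p = 0.000934). Tap1 was at 576.5 and 571.3 CPM in wild-type and 563.3 and 560.9 CPM in TNFR2 KO. Its TNFR2 KO values lay below its wild-type values, yet the log2-fold change of -0.03 (95% interval -0.08 to 0.02, adjusted p = 0.313) was not called. Tap1 was called lower with library size alone (-0.09), with a filter at 10 CPM (-0.07) and with NK lineage scaling (-0.56). Whether Tap1 and Tap2 changed by different amounts was not tested. Psmb9, which starts beside Tap1 on the opposite strand, shares 4.79% of its stretches with it when strand is ignored.

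Tapbp, whose product bridges TAP and the empty class I molecule, had the largest change after Psme2. It measured 645.9 and 663.7 CPM in wild-type and 576.0 and 585.3 CPM in TNFR2 KO. The genotypes were apart by more than the duplicates, and its log2-fold change was -0.17 (SE 0.0246, adjusted p = 8.49e-05). Of its sequence 26.9% also occurs in other annotated genes, mostly in Gm19412, and the corresponding shares were 14.3% for Tap2, 13.7% for Psmb8 and 11.0% for Erap1. Erap1, the trimming aminopeptidase, was at 237.1 and 226.2 CPM in wild-type and 217.3 and 216.7 CPM in TNFR2 KO. The TNFR2 KO duplicates of Erap1 were nearly equal while those of wild-type were further apart, and its log2-fold change was -0.09 (SE 0.03, adjusted p = 0.0203). Without wild-type replicate 1 the change in Erap1 was -0.05 and was not called (adjusted p = 0.291).

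B2m was the member that was higher in the TNFR2 KO libraries with TMM scaling, though not with NK lineage scaling. It measured 2926 and 2918 CPM in wild-type and 3239 and 3159 CPM in TNFR2 KO. This was an increase of 9.48%, or 0.13 on the log2 scale (SE 0.0194, adjusted p = 0.000124). Both TNFR2 KO libraries exceeded both wild-type libraries. With NK lineage scaling the change in B2m was -0.40, which is 0.13 above the median of all genes under that scaling. No stretch of B2m occurs in another annotated gene. The heavy chains that pair with it moved further, as H2-K1 went from 2526 and 2566 CPM to 3895 and 3906 CPM (log2-fold change 0.61) and H2-D1 from 3199 and 3295 CPM to 3826 and 3830 CPM (0.24). Of 8 heavy chain genes 6 were called higher and 2 were not called, H2-Q7 with a log2-fold change of 1.34, though H2-K1 and H2-D1 share 22.8% and 26.9% of their stretches with other genes and with NK lineage scaling H2-K1 stood at 0.08 and H2-D1 at -0.30.

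Per kilobase of transcript, the order of the members in wild-type was B2m, Psme2, Psme1, Psmb8, Tapbp, Tap1, Psmb9, Psmb10, Tap2 and Erap1. B2m stood far above the rest, at 3393 to 3402 CPM per kilobase, and Erap1 was last at 40.1 to 42.0. Psmb9 (165 and 168 CPM per kilobase) and Psmb10 (162 and 164) were so close that the nearest libraries differed by less than the duplicates. In TNFR2 KO, Psme1 (313 and 317) was above both Psmb8 (268 and 261) and Psme2 (265 and 260), whose ranges overlapped, and Psmb9 (150 and 155) and Psmb10 (150 and 156) could not be ordered. The order otherwise matched that of wild-type.

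The rest of the proteasome was also nearly level with TMM scaling. With NK lineage scaling the medians of the 3 lists below were -0.61 (20S), -0.61 (19S) and -0.64 (activators and assembly), against -0.53 over all tested genes. Of 14 constitutive subunits of the 20S core, 7 were called lower and 2 higher, with a median log2-fold change of -0.08 and a range from -0.26 to 0.11. The most abundant of them, Psmb1 and Psmb4, had log2-fold changes of 0.09 (called, but not with library size alone or a filter at 10 CPM) and 0.01 (not called), which were -0.45 and -0.53 with NK lineage scaling. Of 19 subunits of the 19S cap, which recognises and unfolds ubiquitinated proteins, 9 were lower and 1 higher (median -0.08), with Psmd2 at -0.11 and Psmc3, not called, at -0.03. Among 8 other activators, inhibitors and assembly factors, 4 were lower and 4 were not called (median -0.11). All genes of these lists lay within a log2-fold change of 1. Pomp, an assembly factor called lower, helps build the immunoproteasome and had a log2-fold change of -0.13.

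Chaperones and peptidases of the pathway gave a mixed picture. Calr, the lectin chaperone calreticulin, was at 1527 and 1491 CPM in wild-type and 1232 and 1197 CPM in TNFR2 KO, and fell by 0.31 on the log2 scale (adjusted p = 2.43e-07). Pdia3, the oxidoreductase bound to tapasin, was at 1176 and 1168 CPM against 1157 and 1168 CPM and was not called. In all, 3 of 9 genes of loading in the endoplasmic reticulum were lower and 1 was higher (median 0.01). Of 8 peptidases 3 were lower and 1, Lnpep, was higher (log2-fold change 0.14, or -0.39 with NK lineage scaling), while the abundant Nrd1 was not called (-0.01). Lap3, a leucine aminopeptidase, was the gene of this list that passed the fold change limit, at 79.8 and 85.5 CPM in wild-type and 36.5 and 38.8 CPM in TNFR2 KO (log2-fold change -1.14, SE 0.0501, adjusted p = 1.75e-09).

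Regulators of these genes were called in both directions. Of 25 such genes 11 had lower and 10 had higher levels in TNFR2 KO, with a median log2-fold change of -0.02 and a range from -2.76 to 0.60. Irf1, a transcription factor that carries interferon signals to class I promoters, was at 399.1 and 402.0 CPM in wild-type and 319.1 and 331.6 CPM in TNFR2 KO (log2-fold change -0.30). Nlrc5, the transactivator of class I genes, went the other way, from 332.3 and 323.4 CPM to 369.4 and 375.3 CPM (0.18, or -0.35 with NK lineage scaling). Jak1, the most abundant of the list, rose by 0.40 (-0.13 with NK lineage scaling). Ifngr2, a chain of the interferon-γ receptor, was the 1 regulator past the fold change limit. It measured 25.1 and 24.1 CPM in wild-type and 3.59 and 3.65 CPM in TNFR2 KO (log2-fold change -2.76). The other chain, Ifngr1, named after its value was seen, went from 335.6 and 340.1 CPM to 493.9 and 504.4 CPM. Its log2-fold change was 0.56, or 0.03 and not called with NK lineage scaling. Marker list medians were -2.93 (macrophage or monocyte), -2.29 (neutrophil), -2.67 (dendritic or class II), -1.85 (erythroid) and -5.03 (basophil or mast cell). A link between these markers and Ifngr2 was not tested. Ifng itself, named after its value was seen, was at 187.3 and 188.0 CPM against 190.9 and 189.3 CPM and was not called. With NK lineage scaling the log2-fold change of Ifng was -0.51 and was called lower.

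**Figure D4:**
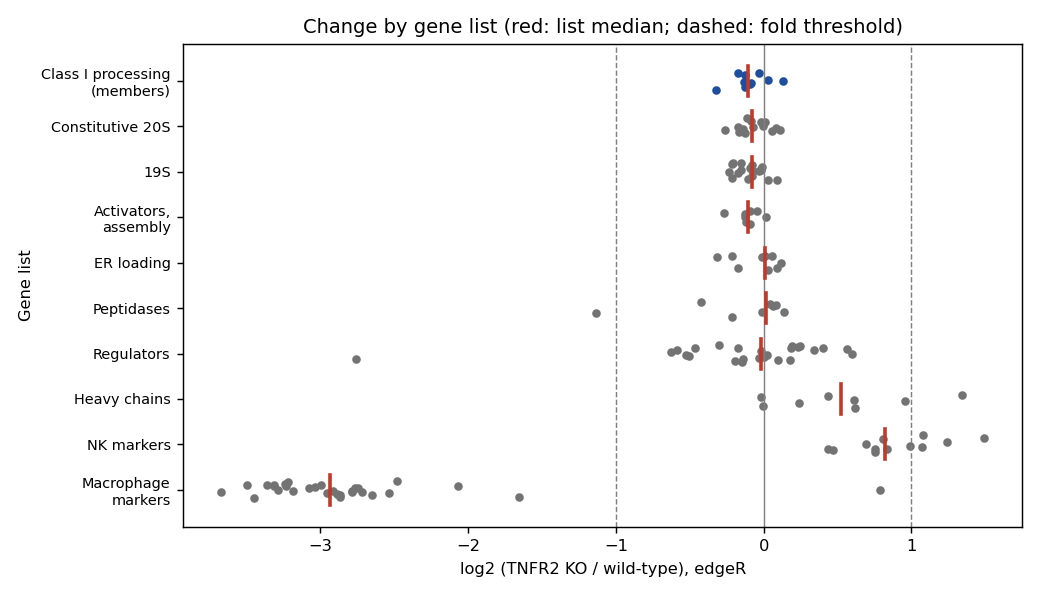
Log2 change of TNFR2 KO over wild-type (edgeR) for each tested gene of 10 lists, with red bars for list medians and dashed lines at 1 and -1. With TMM scaling, as drawn, the 10 class I processing genes (blue) lie with the proteasome lists near 0. Heavy chains and NK markers have medians of 0.52 and 0.82, and macrophage markers one of -2.93. With NK lineage scaling the medians were -0.64 for the 10 genes, -0.61 for the 20S and 19S lists and -0.64 for activators and assembly. Those of heavy chains, NK markers and macrophage markers were then -0.01, 0.29 and -3.47.

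The members were abundant genes. Among the 990 genes at or above the mean level of the least abundant member (207.3 CPM), 74.1% were called at an adjusted p under 0.05, with 200 lower and 534 higher. The median absolute log2-fold change was 0.15 over these genes, 0.13 over the 10 members and 0.22 over all tested genes. With sign, the median was 0.09 over these 990 genes and -0.11 over the 10 members. The common biological coefficient of variation, a single value that edgeR estimated over all tested genes beyond counting noise, was 3.33%.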

How the data were processed

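The authors trimmed paired-end reads of poly-A enriched, stranded libraries with Trimmomatic (1.4), assigned them to mm10 transcripts with Kallisto (0.46.1) and brought them to gene level with Tximport. The deposited values are estimated counts (expected counts) per gene symbol, not scaled. The transcript annotation and Kallisto's strand setting are not given in the sources used here. A row without a gene name (0.0559% to 0.0728% of counts) was left out.

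Counts were rounded, filtered with filterByExpr, scaled with TMM and tested with edgeR 4.0.16 (R 4.3.3) on genotype alone. SE is the log2-fold change over the root of F. The labels' descriptions name, for each replicate number, one pool of spleens as the origin of both genotypes' libraries, so the numbers pair the samples by design (the correlation of same-numbered deviations was 0.0487). Duplicates exceeded counting noise (mean chi-square per gene 3.28 and 3.49, where noise gives 1). Alternatives were other scalings, DESeq2 1.42.0, other filters, the replicate block and each library left out. Steps were tested on simulated data.

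Positions, lengths (principal transcript) and shared 31-base stretches, strand ignored, came from GENCODE M21 (GRCm38). Motifs were searched on both strands. Nrdc was matched as Nrd1 through RefSeq synonyms.

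Members and lists were chosen with earlier results of these data known. Text names the members, Tnfrsf1b, Psmb5, Psmb6, Psmb7, Nlrc5, Irf1, H2-K1, H2-D1, the 2 most abundant genes of each related list and those past both thresholds, and the leading gene of each marker list; a gene of this rule is not reported here. Ifng, Ifngr1, Psme2b and Gm3375 were added after their values were seen.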

Additional observations from a re-analysis of the deposited data

Results flagged for a closer look

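The row of the table without a gene name, which no comparison used, held 0.0716% and 0.0728% of counts in the TNFR2 KO libraries and 0.0559% and 0.0561% in the wild-type libraries, and was flagged because the share lay above that of the wild-type libraries.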

How the results depend on the processing

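With NK lineage scaling, the number of genes under an adjusted p of 0.05 was 11330 against 6965 with TMM, 0 members were called higher, and of the 91 related genes 84 were lower and 5 higher against 37 and 21 with TMM. The changes in B2m and Psme1 reversed to -0.40 and -0.50. That of Psme1, not called in the reported fit, also turned to -0.0328 with library size alone and -0.00804 with a filter at 10 CPM, which left 480 genes past both thresholds against 1842. The split between lower and higher genes past both thresholds was 1627 to 215 with TMM and 2596 to 59 with NK lineage scaling. The ratio of Psmb8 to Psmb5 changed by -0.19 with Gm3375 added, an alternative chosen after seeing the data, and that of Psmb9 to Psmb6 ranged from -0.118 to 0.024 (without TNFR2 KO replicate 1) on the log2 scale when single libraries were omitted. The replicate block, which pairs libraries of the same spleens, gave 7 lower members and 1 higher and 1830 genes past both thresholds, and changed no call of a member. Tap2, Tapbp, Psmb8, Psmb9 and Psme2 kept direction and call under all 13 alternatives, Erap1 under 12 and Psmb10 under 8. Leaving out a library gave 5 to 7 lower members, and a lone library was then assumed to vary like the other genotype. The causes were not tested. With 2 libraries per genotype and pooled hosts, variation between mice is unknown.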
